A study of Mus musculus with 14 samples.

Results

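The keratin genes are the cytoplasmic intermediate filament genes of epithelia. On these arrays, 14 one-colour Agilent microarrays of mouse intestine, intestinal adenomas and a colon carcinoma line, they were taken as the genes whose name in the scanner files is Krt followed by a number and, in some, a letter. This gave 51 keratin genes among 36161 gene names, measured by 65 of 55681 probes. Of them, 28 are type I and 23 are type II keratins. The groups were healthy small intestine of C57BL/6J mice (3 arrays), tissue adjacent to adenomas (2 arrays) and macroscopic adenomas (3 arrays) of APCmin/+ mice, colon of C57BL/6J mice (3 arrays), and CT26 (3 arrays), a mouse colorectal cell line from ATCC. APCmin/+ mice carry a germline truncating mutation in 1 allele of *Apc*, a negative regulator of Wnt signalling, and develop intestinal adenomas. All mice were on a C57BL/6J background, the wild types were adults, the healthy tissues are described as mucosa, and no sorting of cells is stated for the array samples. Of 7 smooth muscle genes, 6 or 7 were above background on every tissue array. The study's sample list places the small intestine arrays under different mice, all adenoma and adjacent arrays under the same APCmin/+ mouse, and 1 colon sample under an APCmin/+ mouse although its label gives C57BL/6J. Sex is not given for any group, CT26 stands for a single cell line, and nothing says that its arrays came from separate cultures, so that p-values measure the spread between these samples only.

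Keratins form filaments as pairs of a type I and a type II protein, and a keratin without a partner is degraded. Simple epithelia such as that of the gut rely on the type II keratins *Krt8* and *Krt7* and on the type I keratins *Krt18*, *Krt19*, *Krt20* and *Krt23*. Stratified epithelia use *Krt5* and *Krt14* in the basal layer, *Krt1* and *Krt10* above it in skin, *Krt4* and *Krt13* in moist mucosae, and *Krt6a*, *Krt16* and *Krt17* in appendages and after injury, while a further set builds hair. Filaments are anchored to desmosomes by plakins such as desmoplakin. In this genome the type I genes lie together on chromosome 11 and the type II genes on chromosome 15, where *Krt18* is the exception among type I genes.

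The probes followed this layout. By the positions in the scanner files (NCBI37/mm9), 27 of 28 type I genes lay on chromosome 11, between 99094648 and 100128311, and 22 of 23 type II genes on chromosome 15, between 101180014 and 101862400, with *Krt18* beside *Krt8* at its far end. The probe of *Krt85* that is read here is given no position. Each gene was read from its brightest probe, that is the one with the highest mean over all arrays. By accession, 48 of the 51 names matched the same symbol in a RefSeq gene table (GRCm38.p6), the probe named *Krt83* is listed there as *Krt87*, and the probes of *Krt8* and *Krt85* were not matched.

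Upstream sequences are shown for 5 of the keratins that moved in adenomas, chosen after their values were seen. They are the 250 bases before the annotated start of *Krt7*, *Krt18*, *Krt23* and *Krt36*, which were higher in adenomas than in both small intestine and adjacent tissue, and of *Krt20*, the simple keratin that was lower in adenomas than in small intestine. The other 4 called against small intestine, *Krt4*, *Krt14*, *Krt83* and *Krt222*, are not shown. The sequences come from RefSeq (GRCm38.p6) and run 5′ to 3′ on the strand of the gene, with the letters of 5 searched motifs in capitals.
Krt7, chr15:101412153-101412402, plus strand: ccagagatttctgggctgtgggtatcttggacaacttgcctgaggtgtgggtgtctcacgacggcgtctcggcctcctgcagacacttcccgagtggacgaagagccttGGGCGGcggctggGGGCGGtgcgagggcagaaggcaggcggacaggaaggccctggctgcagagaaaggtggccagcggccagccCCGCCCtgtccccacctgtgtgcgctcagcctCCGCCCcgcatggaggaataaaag
Krt18, chr15:102027966-102028215, plus strand: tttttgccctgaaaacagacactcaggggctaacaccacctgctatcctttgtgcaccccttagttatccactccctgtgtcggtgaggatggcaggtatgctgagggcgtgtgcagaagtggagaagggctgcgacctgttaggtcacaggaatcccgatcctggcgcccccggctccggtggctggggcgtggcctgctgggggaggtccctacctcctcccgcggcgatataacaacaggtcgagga
Krt23, chr11:99493121-99493370, minus strand: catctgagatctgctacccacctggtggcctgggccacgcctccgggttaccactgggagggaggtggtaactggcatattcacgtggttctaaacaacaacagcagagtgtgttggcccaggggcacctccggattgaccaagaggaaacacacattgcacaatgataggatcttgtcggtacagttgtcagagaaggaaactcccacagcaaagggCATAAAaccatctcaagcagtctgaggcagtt
Krt36, chr11:100105627-100105876, minus strand: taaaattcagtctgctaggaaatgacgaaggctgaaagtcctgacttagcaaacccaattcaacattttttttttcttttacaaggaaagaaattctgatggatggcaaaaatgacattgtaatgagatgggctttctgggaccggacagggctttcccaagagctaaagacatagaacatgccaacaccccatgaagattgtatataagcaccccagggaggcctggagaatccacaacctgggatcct
Krt20, chr11:99438154-99438403, minus strand: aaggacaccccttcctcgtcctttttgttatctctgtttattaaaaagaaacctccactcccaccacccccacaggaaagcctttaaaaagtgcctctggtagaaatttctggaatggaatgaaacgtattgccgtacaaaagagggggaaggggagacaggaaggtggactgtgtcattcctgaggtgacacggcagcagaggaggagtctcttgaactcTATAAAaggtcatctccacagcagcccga

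Short motifs were searched on both strands. The TATA box was taken as TATAAA. The GC box, to which the factor Sp1 binds, was taken as GGGCGG. For AP-1 the letters were TGACTCA. For TCF/LEF, the factors of Wnt signalling, they were CTTTGAT. For CDX, the intestinal homeobox factors, they were TTTATG. The reverse complement of the CDX letters differs from the TATA box at its first base, so that both can overlap in part but not match the same bases. *Krt7* held the GC box at 4 places, starting 141, 128, 56 and 24 bases before the start. Upstream of *Krt23* there was the CDX motif on the other strand at 32 bases, and upstream of *Krt20* the TATA box at 29 bases. The windows of *Krt18* and *Krt36* held none of these letters. TCF/LEF letters were in none of the 5 windows, and in 3.2% of all 32851 promoters of the table. Of the 34 keratins of the array that have a promoter in the table, 16 held the TATA box and 16 the CDX motif, which is 47.1% each, against 12.4% and 10.8% of all promoters. A keratin was counted where any promoter listed for it held the letters, while the shares of all are per promoter. The GC box was in 2 of the 34, 1 of them *Krt7*, against 32.7% of all promoters, and the AP-1 and TCF/LEF motifs were in 1 each, where 4.5% of all promoters held the AP-1 motif. A match of letters is a description and not a binding site.

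The brightest probes of *Krt81* and *Krt83* read closely similar sequence. The *Krt81* probe lies on chromosome 15 from 101290583 to 101290642 and the *Krt83* probe on chromosome 15 from 101263556 to 101263615 (mm9). They matched at 51 of 55 overlapping bases without a gap, with an unbroken run of 24. Whether RNA of one gene was read by the probe of the other was not tested, and the values of both genes are uncertain for that reason. The brightest probe of *Krt85* also resembles both, so that its values carry the same uncertainty.

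The scanner software marked between 46.8% and 58.2% of an array's probes as well above background, fewest on colon replicate 3, and the arrays lay on 2 slides that each held arrays of every group. The values below are log2 of the background-subtracted signal minus the 75th percentile of the array (the scaled log2 signal), which compares samples at the same probe and not different probes. The tissue labels were checked with marker genes. Colon replicate 3 went against its label: the median scaled log2 signal of 10 enterocyte genes of the small intestine was 5.19 on it and -2.38 and -2.16 on the other colon arrays, and that of 7 colonocyte genes was -1.93 against 5.59 and 5.11. Counts of keratins called against colon are therefore given with and without it. Differences of single genes and lists from colon use all colon arrays unless stated otherwise. In CT26, 8 of 12 general epithelial markers, *Epcam*, *Cdh1* and *Vil1* among them, were above background on no array, while *Cdx2*, *Lgals4*, *Esrp1* and *Cldn7* were so on every array, at a lower signal than in colon.

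Of the 51 keratins, 34 were well above background throughout 1 or more groups, 16 of them on all 14 arrays. The remaining 17 comprised 14 that were above background on no array and 3, *Krt27*, *Krt35* and *Krt71*, that were so on 1 to 3 arrays only. These 17 were 7 hair shaft keratins, 6 inner root sheath keratins, *Krt1* and *Krt77* of skin, *Krt76* and *Krt75*, and their scaled log2 signals lay between -7.61 and -2.48. By group, 33 keratins were above background on every adenoma array, 29 on every adjacent array, 27 on every colon array, 25 on every small intestine array and 17 on every CT26 array. Counts of genes whose groups differed refer to limma fits on the arrays of the groups compared, over all probes above background throughout 1 or both of them. A gene was called higher or lower where the log2 difference reached 1.2 and the p adjusted by Benjamini-Hochberg did not exceed 0.01. Of the 34 keratins tested, 20 were called in at least 1 of 6 comparisons.

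**Figure D1:**
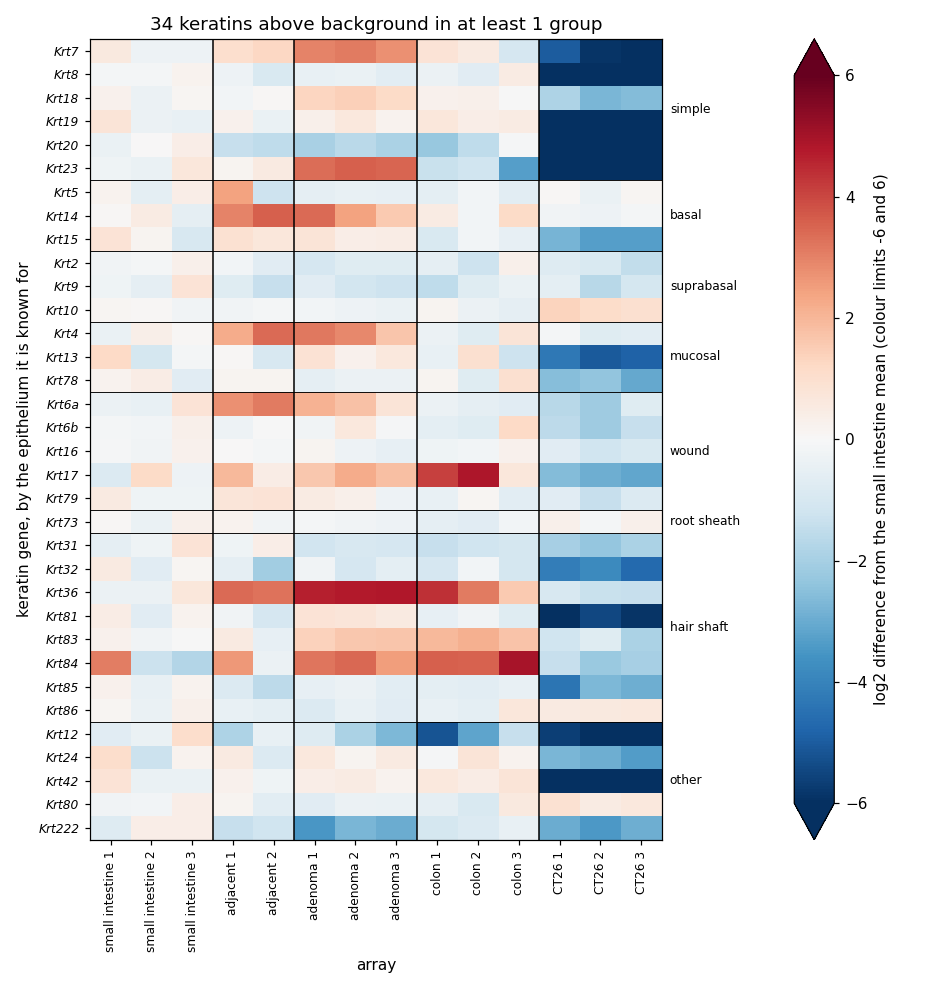
Each row is 1 of the 34 keratins above background in at least 1 group and each column 1 array; the colour is the log2 difference of the scaled signal from the small intestine mean, limited at -6 and 6. *Krt7* and *Krt23* are highest on the 3 adenoma arrays. *Krt14*, *Krt4*, *Krt6a* and *Krt36* are higher on the adjacent and adenoma arrays, *Krt36* also on the colon arrays, and most simple keratins are lower in CT26.

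Among the 6 keratins of simple epithelium, 3 were higher and 1 was lower in adenomas than in small intestine. Against small intestine, the mean signal rose 11.1-fold for *Krt23*, 7.72-fold for *Krt7* and 2.44-fold for *Krt18*, and it was 3.54-fold lower for *Krt20*. *Krt8* and *Krt19* were not called. *Krt23*, *Krt7* and *Krt18* were also higher in adenomas than in adjacent tissue. Over all keratins, 7 of 33 tested were higher and 2 were lower in adenomas than in small intestine, against 11.3% and 11.1% of the 22094 genes tested. Of the higher ones, *Krt4*, *Krt36* and *Krt83* were tested only because the adenoma arrays were above background. Whether the shares of the 33 keratins differ from those of all genes was not tested. The keratins' median log2 difference was 0.17, and that of all genes tested was -0.15.

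*Krt23*, a small type I keratin of simple epithelia, read 2.86, 2.69 and 3.76 in small intestine, 3.26 and 3.64 in adjacent tissue, 6.46, 6.69 and 6.58 in adenomas, 1.77, 1.93 and -0.19 in colon, and -6.83, -6.39 and -7.36 in CT26. All 3 adenoma arrays lay above all other arrays, and CT26 was not above background on any. The log2 difference of adenomas was 3.48 (SE 0.29, limma adjusted p = 0.000227) against small intestine and 3.13 (SE 0.18, limma adjusted p = 0.00182) against adjacent tissue. *Krt7*, the type II keratin of ducts and of many glands, read 3.30, 2.38 and 2.39 in small intestine, 3.71 and 3.95 in adjacent tissue, 5.68, 5.78 and 5.45 in adenomas, 3.52, 3.23 and 1.68 in colon, and -2.29, -3.18 and -3.70 in CT26. Here too the adenoma arrays were the highest of all, with the adjacent arrays next. Its log2 difference was 2.95 (SE 0.28, limma adjusted p = 0.000334) against small intestine and 1.81 (SE 0.18, limma adjusted p = 0.00532) against adjacent tissue.

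*Krt18*, the main type I partner of *Krt8*, read 7.92, 7.28 and 7.74 in small intestine, 7.48 and 7.71 in adjacent tissue, 8.95, 9.06 and 8.79 in adenomas, 7.91, 7.94 and 7.63 in colon, and 5.77, 4.92 and 5.05 in CT26. Adenomas did not overlap with any other group, and the difference was 1.29 (SE 0.21, limma adjusted p = 0.00276) against small intestine and 1.34 (SE 0.17, limma adjusted p = 0.00813) against adjacent tissue, just past the threshold of 1.2. The call against small intestine held in 9 of 15 alternative settings, with log2 differences down to 1.11 and adjusted p-values up to 0.0159. Without adenoma replicate 1, 2 or 3 in turn, none of these 3 genes reached an adjusted p of 0.01 against adjacent tissue, a comparison with 2 adjacent arrays. *Krt20*, a type I keratin of differentiated cells at the villus tip, read 9.10, 9.53 and 9.90 in small intestine, 8.11 and 7.998 in adjacent tissue, 7.58, 7.88 and 7.60 in adenomas, 7.24, 7.97 and 9.46 in colon, and 0.73, 2.71 and 1.65 in CT26. It was lower on every adenoma and adjacent array than on every small intestine array, and the difference of adenomas from small intestine was -1.82 (SE 0.24, limma adjusted p = 0.00109). Against adjacent tissue it was -0.37 (SE 0.17, limma adjusted p = 0.171), which did not pass.

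*Krt8*, the principal type II keratin of the gut, read 9.34, 9.34 and 9.67 in small intestine, 9.13 and 8.52 in adjacent tissue, 9.01, 9.06 and 8.81 in adenomas, 9.12, 8.77 and 9.93 in colon, and -5.31, -3.79 and -4.11 in CT26. Its tissue arrays lay between 8.52 and 9.93, and adenomas differed from small intestine by -0.49 (SE 0.17, limma adjusted p = 0.0486), which passed neither threshold. A second *Krt8* probe differed by -0.83 (SE 0.19, limma adjusted p = 0.0110) in this comparison and was not called either. *Krt19*, the smallest type I keratin of simple epithelium, read 8.60, 7.46 and 7.38 in small intestine, 8.07 and 7.43 in adjacent tissue, 8.14, 8.43 and 8.05 in adenomas, 8.48, 8.23 and 8.33 in colon, and -6.14, -7.27 and -6.96 in CT26. Tissue groups overlapped, and the log2 difference of adenomas from small intestine was 0.39 (SE 0.34, limma adjusted p = 0.359). A rise of *Krt18* was called at its probe, and none of *Krt8*, its type II partner, was, and the difference between the responses of both genes was not tested.

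**Figure D2:**
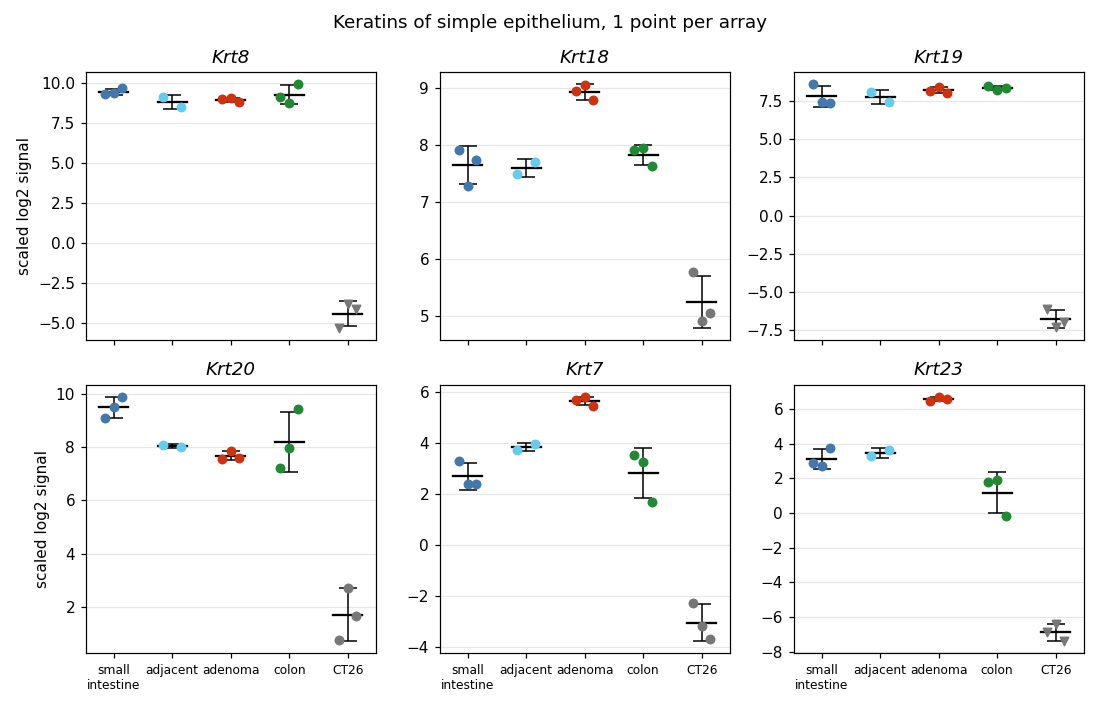
Scaled log2 signal (log2 of the signal minus the 75th percentile of the array) of 6 keratins of simple epithelium, with 1 point per array, the group mean as a bar and the SD as whiskers; triangles mark groups in which 1 or more arrays were not above background, and each panel has its own vertical scale. *Krt18*, *Krt7* and *Krt23* are highest on the 3 adenoma arrays, and all 6 are lowest in CT26.

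Markers of other cell types moved with these keratins. The 8 gastric gland genes of a fixed list (*Gkn1*, *Gkn3*, *Tff1* and others) were all higher in adenomas than in small intestine, against 11.3% of all genes. Apart from *Gkn3*, each was tested only because the adenoma arrays were above background, and could hardly be called lower. *Gkn3* differed by 8.13 and *Tff1*, above background on 1 small intestine array, by 10.56 on the log2 scale. *Gkn1*, above background on no small intestine array, was at least 1.97-fold higher, and 6 of the 8 gastric genes were higher than in adjacent tissue. Their summed scaled signal was 356 to 634 in adenomas, 5.25 to 14.5 in adjacent tissue and 0.501 to 7.70 in small intestine. Of 10 enterocyte genes 6 were lower in adenomas than in small intestine, with sums of 280.4 to 446 against 1429 to 3460.2. Of 12 general epithelial genes (*Epcam*, *Cdh1*, *Vil1* and others) 5 were lower and none was higher, with sums of 734 to 949 against 1798 to 2089. Mesothelial genes, from the outer lining of the gut that also makes simple keratins, were lower for 5 of 6 tested. Most of these were above background on no adenoma array. The sums, 2.19 to 5.34 against 1.59 to 10.8, overlapped, and in adenomas they were mostly signal of *Msln*, the tested gene not called. Its mean scaled log2 signal was 1.84 in adenomas and 1.02 in small intestine. Fibroblast genes were higher for 3 of 6, with sums of 90.03 to 105 against 13.1 to 69.8, and goblet cell genes were lower for 3 of 5, with sums of 971 to 1294 against 2529 to 2736. Over all genes, 11.1% were lower in this comparison. Of 6 colonocyte genes tested 4 were lower and 1 was higher, of 4 tuft cell genes 1 moved each way, and of 3 pancreatic acinar genes none was called. Fewer cells of a type and less RNA per cell cannot be told apart in such unsorted tissue, and the part of these cell types in the keratin differences was not tested.

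Among keratins of stratified epithelium, *Krt14* and *Krt4* were higher in adenomas than in small intestine. They were 1 of 3 keratins tested from the basal layer and 1 of 2 from moist mucosa, and none of 5 tested from the wound and appendage set or of 3 from the upper layers of skin was called. In alternative settings the *Krt14* call held in 8 of 15 (log2 difference 1.60 to 2.90, adjusted p up to 0.0219), and was lost without small intestine replicate 1, 2 or 3 and without adenoma replicate 1 or 2. That of *Krt4* held in 11 of 14, and was lost without adenoma replicate 2, in the table of the deposited normalized values, and with normexp background correction, where the log2 difference was 0.23 (adjusted p = 0.410). Between adjacent tissue and small intestine no keratin of 31 tested was called. By limma with Benjamini-Hochberg adjustment, 0.00924% and 0% of 21641 genes were called higher and lower. An unadjusted limma p under 0.05 was found for 8 of the 31 keratins, and for 8748 of all 28833 probes tested. *Krt14*, *Krt6a* and *Krt36* had the smallest adjusted p-values there, between 0.0384 and 0.0467. Between adenomas and adjacent tissue, no stratified keratin was called in either direction.

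*Krt14*, the type I keratin of basal cells, read -3.37, -2.95 and -3.95 in small intestine, -0.46 and 0.15 in adjacent tissue, -0.05, -1.0 and -1.85 in adenomas, -2.94, -3.57 and -2.27 in colon, and -3.64, -3.73 and -3.53 in CT26. All adjacent and adenoma arrays were above all others, and adjacent and adenoma arrays overlapped. The log2 difference was 2.46 (SE 0.47, limma adjusted p = 0.00515) for adenomas and 3.27 (SE 0.37, limma adjusted p = 0.0392) for adjacent tissue, each against small intestine. *Krt4*, the type II keratin of moist stratified mucosa, read -7.07, -6.34 and -6.61 in small intestine, -4.46 and -3.26 in adjacent tissue, -3.50, -3.81 and -4.99 in adenomas, -7.01, -7.42 and -5.91 in colon, and -6.78, -7.38 and -7.30 in CT26. It was above background on every adenoma array and on 1 of the 2 adjacent arrays and on none of the other arrays, and its adenoma signal was at least 1.35-fold higher than that of small intestine (limma adjusted p = 0.00235). *Krt6a*, a type II keratin of appendages and injured skin, averaged -2.29 ± 0.27 in the 2 adjacent arrays, -3.68 ± 0.69 in the 3 adenoma arrays and -5.23 ± 0.72 on the 3 arrays of small intestine (mean ± SD). It was above background on no small intestine array, and its adenoma signal was at least 1.79-fold higher than that of small intestine. Its fitted log2 difference was 2.94 (SE 0.44, limma adjusted p = 0.0467) for adjacent tissue and 1.55 (SE 0.46, limma adjusted p = 0.0263) for adenomas, and neither passed.

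*Krt5*, the usual type II partner of *Krt14*, was split within the adjacent group. Its probe read -0.94 and -4.62 on the 2 adjacent arrays, where small intestine had a mean of -3.37 ± 0.51 (SD, n = 3) and adenomas of -3.86 ± 0.05 (SD, n = 3), so that 1 adjacent array was high and the other was not. *Krt15*, another basal keratin, had means of -3.26 in adjacent tissue, -3.51 in adenomas and -4.06 in small intestine and was not called in any comparison. *Krt16*, *Krt6b* and *Krt79* of the appendage set were above background in every tissue group and were also not called in any comparison. *Krt16* is the usual type I partner of the *Krt6* genes. For *Krt16* the tissue means ran from -0.78 to -0.54, for *Krt79* from -1.25 to -0.14, and for *Krt6b* from -3.73 to -3.46.

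Other genes of squamous epithelium stood beside them. Of 15 listed genes 9 were tested between adenomas and small intestine, and 7 were higher and none lower, against the 11.3% and 11.1% of all genes. *Dmkn* differed by 4.54 and *Lor* by 2.33 on the log2 scale, while *Lgals7* and *Ivl*, above background on no small intestine array, were at least 10.8 and 2.37-fold higher. *Ivl* encodes involucrin and *Lor* loricrin, proteins of the cornified envelope. Their summed scaled signal was 49.8 to 62.6 in adenomas, 20.04 to 39.6 in adjacent tissue and 16.6 to 30.7 in small intestine. The probe of *Trp63*, the transcription factor that defines stratified epithelium, was between 1.33 and 4.03 on all 14 arrays. *Gpx5*, an epididymis gene, read 3.62 and 4.29 in adjacent tissue and 1.69, 2.13 and 1.35 in adenomas and was above background on none of the other arrays, while *Crisp1*, *Lcn5*, *Lcn8* and *Lcn9* of the same list were above background on none at all. It was at least 359-fold higher in adjacent tissue than in small intestine (limma adjusted p = 0.00239). The part of such cells in the keratin differences was not tested.

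**Figure D3:**
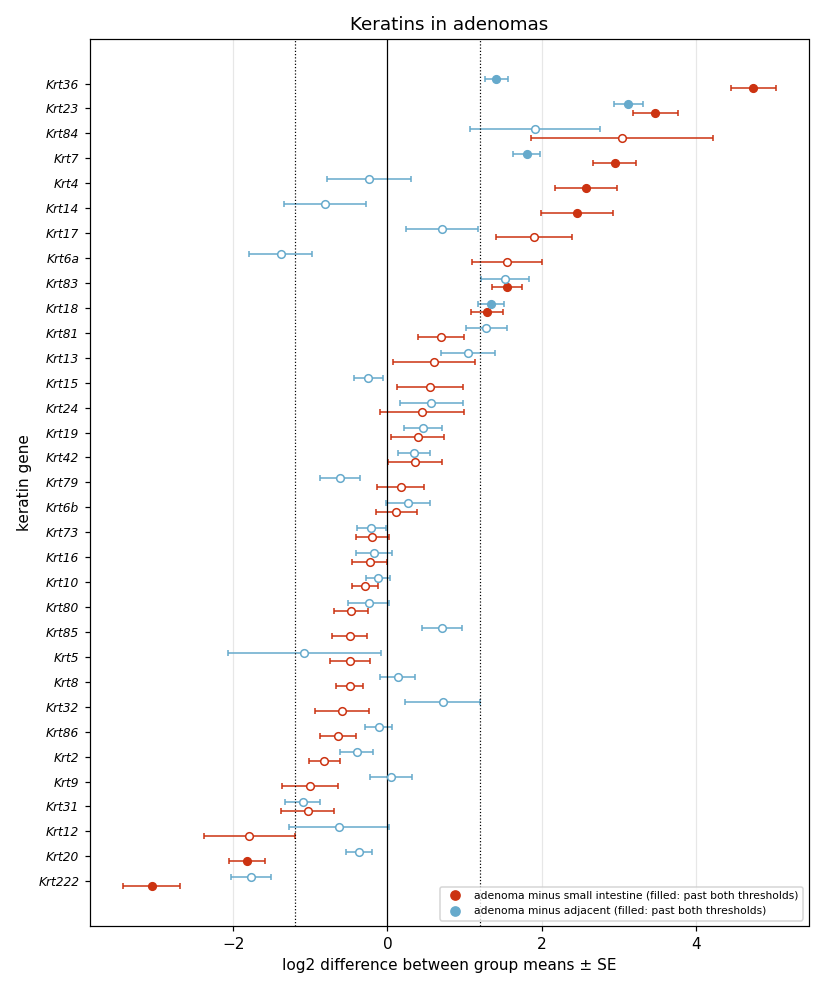
Log2 difference between group means with its SE (limma) for each keratin tested between adenomas and small intestine (red) and between adenomas and adjacent tissue (blue); filled points are past both thresholds and dotted lines mark 1.2 and -1.2. *Krt36*, *Krt23*, *Krt7* and *Krt18* are filled in both, whereas *Krt4* and *Krt14* are filled in red alone.

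Among keratins known from hair, *Krt36* and *Krt83* were higher in adenomas than in small intestine. *Krt36*, a type I keratin of nail and hair, read -6.08, -6.09 and -5.07 in small intestine, -2.33 and -2.49 in adjacent tissue, -1.08, -0.97 and -0.96 in adenomas, -1.34, -2.63 and -4.18 in colon, and -6.71, -7.10 and -7.12 in CT26. Its adenoma arrays were the highest, the adjacent arrays and the colon arrays came below them, and small intestine was not above background on any array. Its adenoma signal was at least 11.6-fold higher than that of small intestine (limma adjusted p = 9.90e-05), and the log2 difference from adjacent tissue was 1.41 (SE 0.15, limma adjusted p = 0.00593). A second probe of *Krt36* lay on chromosome 11 from 99963572 to 99963631, against 99963330 to 99963389 for the first (mm9), and moved with it, with a signal at least 5.26-fold above small intestine in adenomas and a Pearson correlation of 0.992 over the 11 tissue arrays.

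*Krt83* read -4.72, -5.21 and -5.01 in small intestine, -4.45 and -5.46 in adjacent tissue, -3.61, -3.38 and -3.29 in adenomas, -3.03, -2.84 and -3.25 in colon, and -6.20, -5.69 and -6.86 in CT26. It was above background on 1 small intestine array, 3 adenoma arrays and 3 colon arrays, and its log2 difference between adenomas and small intestine was 1.55 (SE 0.19, limma adjusted p = 0.000882). That call held in 12 of 14 alternative settings, with log2 differences of 0.35 to 1.68 and limma adjusted p-values up to 0.0991. *Krt84*, a type II keratin of tongue and nail, read -1.69, -6.06 and -6.50 in small intestine, -2.15 and -5.10 in adjacent tissue, -1.53, -1.33 and -2.26 in adenomas, -1.16, -1.22 and 0.18 in colon, and -6.16, -6.99 and -6.74 in CT26. Small intestine and adjacent tissue were split among their own arrays, and the difference of adenomas from small intestine, 3.04 (SE 1.18, limma adjusted p = 0.0661), did not pass. *Krt31*, *Krt32* and *Krt86* had adenoma means of -1.82, -3.10 and -3.48 and small intestine means of -0.78, -2.52 and -2.84, and with all arrays none of them was called in any comparison. Without colon replicate 3, *Krt32* was called lower in CT26 than in colon, at -3.62 (SE 0.39, limma adjusted p = 0.000260). It was above background on no CT26 array, and with all arrays it was not tested in this comparison.

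*Krt222*, a keratin-like gene at the edge of the type I cluster, fell in adenomas. It read 3.50, 4.69 and 4.69 in small intestine, 2.92 and 3.09 in adjacent tissue, 0.79, 1.56 and 1.34 in adenomas, 3.25, 3.46 and 3.85 in colon, and 1.31, 0.87 and 1.38 in CT26. Every adenoma array was below every normal tissue array, and adjacent tissue was between adenomas and small intestine. The difference of adenomas was -3.06 (SE 0.37, limma adjusted p = 0.000866) from small intestine and -1.77 (SE 0.26, limma adjusted p = 0.0112) from adjacent tissue, the second of which missed the threshold of 0.01. Its second probe was above background on no array. Smooth muscle genes had summed scaled signals of 95.2 to 115 in adenomas, 145 to 581 in adjacent tissue and 138 to 507 in small intestine, and their part in this difference was not tested.

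**Figure D4:**
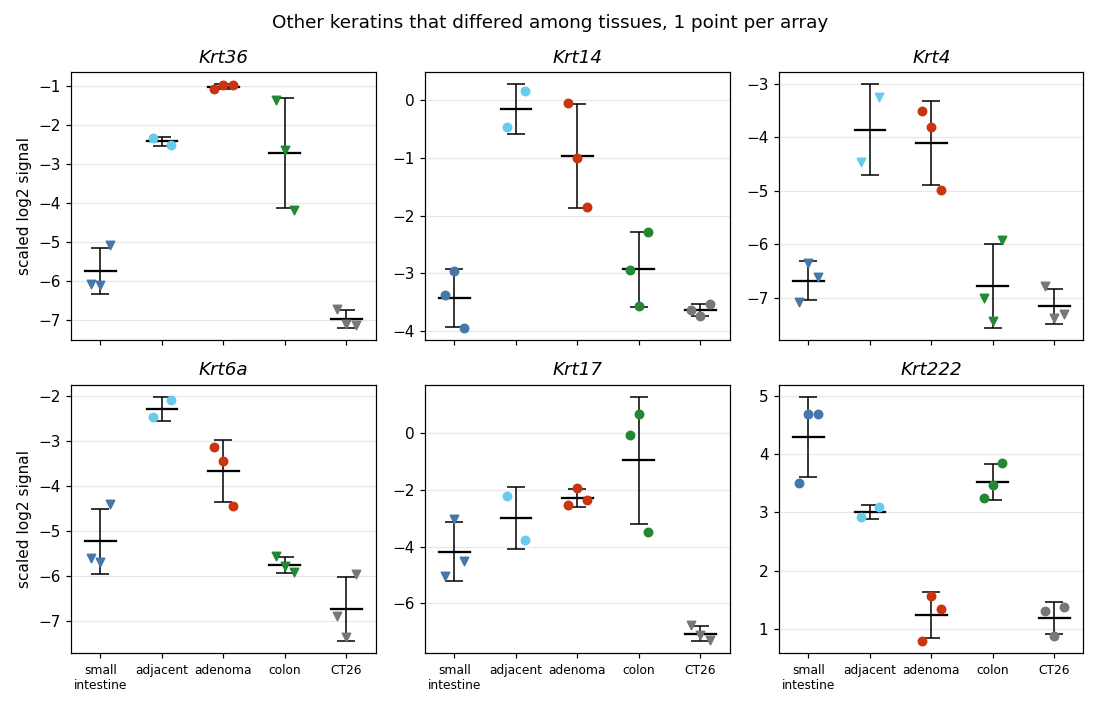
Scaled log2 signal of 6 further keratins, with 1 point per array, the group mean as a bar and the SD as whiskers; triangles mark groups in which 1 or more arrays were not above background, and each panel has its own vertical scale. *Krt14*, *Krt4* and *Krt6a* are high on adjacent and adenoma arrays, *Krt36* on adenoma, adjacent and colon arrays, *Krt17* on 2 of 3 colon arrays, and *Krt222* is lowest in adenomas and CT26.

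Between adenomas and adjacent tissue, 4 of 34 keratins tested were higher and none was lower, against 2.4% and 1.78% of 22199 genes. The 4 were *Krt23*, *Krt7*, *Krt18* and *Krt36*, each of which was also called against small intestine, a comparison that shares the adenoma arrays. Adenoma and adjacent arrays did not overlap for any of them, so that the same sign within each slide also followed by construction. The call count depended on the arrays and the fit, since 0 were called without adenoma replicate 1, 2 or 3 and 1 without adjacent replicate 1, and 0 in a fit of all 5 groups. The call of *Krt36* held in 3 of 15 alternative settings, that of *Krt18* in 5, that of *Krt7* in 6 and that of *Krt23* in 9.

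Between colon and small intestine, no keratin of 30 tested was called, where 0.00484% of 20645 genes were called higher and 0.00484% lower by limma. Of the 30, 6 had an unadjusted limma p under 0.05, as had 6414 of all 27302 probes tested. Without colon replicate 3, *Krt17*, *Krt36* and *Krt83* were higher in colon and none was lower, against 3.34% and 3.9% of genes. *Krt17*, a type I keratin of appendages that is induced in stressed epithelium, read -5.02, -3.03 and -4.49 in small intestine, -2.22 and -3.75 in adjacent tissue, -2.55, -1.94 and -2.35 in adenomas, -0.06, 0.67 and -3.50 in colon, and -6.77, -7.12 and -7.28 in CT26. Colon replicates 1 and 2 were the highest of all arrays, and replicate 3 was among those of the other tissues. Its log2 difference from small intestine was 3.22 (SE 1.12, limma adjusted p = 0.161) with all colon arrays and 4.49 (SE 0.61, limma adjusted p = 0.00607) without replicate 3. *Krt36* differed by 3.76 (SE 0.50, limma adjusted p = 0.00570) and *Krt83* by 2.05 (SE 0.25, limma adjusted p = 0.00437) without that array. Of the small intestine arrays, none was above background for *Krt36* and 1 was for *Krt83*.

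Against colon, *Krt23* was higher in adenomas and *Krt222* lower, 1 of 34 keratins each, where 2.07% and 1.63% of 21861 genes were called. The log2 difference was 5.41 (SE 0.57, limma adjusted p = 0.00461) for *Krt23* and -2.29 (SE 0.28, limma adjusted p = 0.00693) for *Krt222*. Without colon replicate 3, *Krt7* at 2.26 (SE 0.18, limma adjusted p = 0.00110) and *Krt4* at 3.12 (SE 0.46, limma adjusted p = 0.00670) were called higher as well, and *Krt17* at -2.59 (SE 0.30, limma adjusted p = 0.00301) lower. *Krt4* was above background on no colon array. The shares of all genes called higher and lower were then 5.03% and 6.69%. *Krt23* was then at 4.73 (SE 0.16, limma adjusted p = 0.000146) and *Krt222* at -2.12 (SE 0.26, limma adjusted p = 0.00374). With all colon arrays the count fell to 0 without any 1 of the adenoma arrays or without colon replicate 1, and to 1 without colon replicate 2.

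In CT26, all 6 keratins of simple epithelium were lower than in colon, *Krt8* by 13067-fold, *Krt19* by at least 12613-fold, *Krt23* by at least 87.2-fold, *Krt20* by 92.0-fold, *Krt7* by 58.3-fold and *Krt18* by 5.99-fold. Of 28 keratins tested, 16 were lower and 1 was higher, against 16.2% and 21% of 21692 genes. Of the lower ones, *Krt8*, *Krt17*, *Krt19*, *Krt23*, *Krt24*, *Krt42*, *Krt78*, *Krt81*, *Krt83* and *Krt84* were tested only because colon was above background. Such genes could hardly be called higher. The median log2 difference of the 28 keratins was -2.68, and that of all genes tested was 0.32. Without colon replicate 3, 18 were lower and 1 was higher, against 19.4% and 20.1% of genes. *Krt32* and *Krt36*, not tested with all arrays, were then among the lower, *Krt36* at -4.99 (SE 0.42, limma adjusted p = 7.72e-05). Both were above background on no CT26 array. For all 17 differences called with all arrays, CT26 and colon arrays did not overlap, so that the same sign within each slide followed by construction. CT26 came from another source than the tissues, a culture without stroma, and the line, the culture and the strain cannot be told apart from one another in this comparison.

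*Krt8* was above background on 2 of 3 CT26 arrays, and its log2 difference from colon was -13.67 (SE 0.49, limma adjusted p = 1.26e-06). The second *Krt8* probe, above background on none of the CT26 arrays, was at least 8895-fold lower. *Krt19* was above background on no CT26 array (limma adjusted p = 5.42e-07). For *Krt20* the log2 difference was -6.52 (SE 0.68, limma adjusted p = 0.000184) and for *Krt7* -5.86 (SE 0.57, limma adjusted p = 0.000131). *Krt18* was above background on every CT26 array and differed by -2.58 (SE 0.33, limma adjusted p = 0.000484), so that a signal of the type I gene remained on all CT26 arrays. *Krt23* was above background on no CT26 array (limma adjusted p = 3.27e-05).

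Of the other sets, 2 of 2 mucosal keratins tested, 4 of 6 from the hair shaft, 1 of 4 from the wound and appendage set and 3 of 4 outside these sets were lower in CT26, none of 2 from the basal layer and 1 from the inner root sheath was called, and of 3 from the upper layers of skin 1 was higher. *Krt13*, the mucosal type I keratin, read 2.71, 0.46 and 1.38 in small intestine, 1.60 and 0.54 in adjacent tissue, 2.40, 1.79 and 2.16 in adenomas, 1.05, 2.48 and 0.29 in colon, and -2.78, -3.52 and -3.36 in CT26. *Krt17* and *Krt84* were at least 19.9 and 23.3-fold lower in CT26 than in colon. *Krt24*, a type I keratin of unsettled function, read -2.39, -4.70 and -3.20 in small intestine, -2.87 and -4.23 in adjacent tissue, -2.79, -3.25 and -2.90 in adenomas, -3.49, -2.66 and -3.20 in colon, and -6.15, -6.36 and -6.77 in CT26, and was at least 4.47-fold lower. *Krt78* read -4.11, -3.90 and -5.01 in small intestine, -4.15 and -4.15 in adjacent tissue, -4.87, -4.70 and -4.71 in adenomas, -4.19, -5.09 and -3.38 in colon, and -6.87, -6.73 and -7.41 in CT26, at least 2.08-fold lower, and *Krt83* was at least 4.72-fold lower. None of these last 5 was above background on any CT26 array. For *Krt13* the difference was -4.49 (SE 0.56, limma adjusted p = 0.000432) and for *Krt222* -2.34 (SE 0.31, limma adjusted p = 0.000574), both with every array above background.

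**Figure D5:**
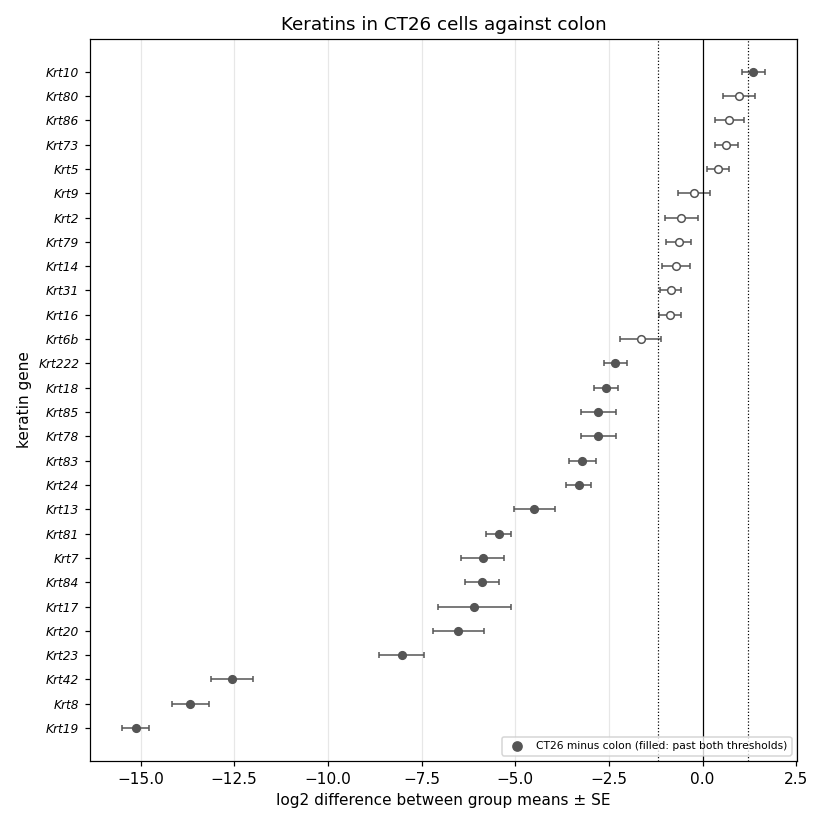
Log2 difference between CT26 and colon (group means, with the SE of limma) for the 28 keratins tested; filled points are past both thresholds and dotted lines mark 1.2 and -1.2. *Krt19*, *Krt8* and *Krt42* lie farthest to the left, and *Krt10* is the filled point on the right.

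*Krt10*, the suprabasal type I keratin of skin, was the keratin called higher in CT26. It read -0.12, -0.18 and -0.45 in small intestine, -0.46 and -0.38 in adjacent tissue, -0.41, -0.55 and -0.66 in adenomas, -0.09, -0.60 and -0.77 in colon, and 1.07, 0.83 and 0.70 in CT26 at its brightest probe, with every CT26 array above every tissue array, and the difference from colon was 1.35 (SE 0.31, limma adjusted p = 0.00744). The call was lost in 12 of 15 alternative settings, with adjusted p-values up to 0.0280. Its other probe, also on chromosome 11, went the other way, with a difference of -6.47 (SE 0.58, limma adjusted p = 8.61e-05). Without colon replicate 3, *Krt80* was the keratin called higher, at 1.40 (SE 0.30, limma adjusted p = 0.00657), and *Krt10* was not called. Keratins tested and not called here included *Krt16*, *Krt73*, *Krt86*, *Krt79*, *Krt9* and *Krt2*, with CT26 means of -1.47, 0.11, -2.26, -1.89, -4.02 and -2.30 and colon means of -0.60, -0.52, -2.97, -1.25, -3.79 and -1.73.

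The probes of *Krt42* and *Krt84* and the second probe of *Krt10* ran close to that of *Krt19* over the tissue arrays. *Krt42*, listed as a type I gene of nail, read 6.60, 5.36 and 5.35 in small intestine, 6.03 and 5.53 in adjacent tissue, 6.17, 6.26 and 5.96 in adenomas, 6.39, 6.22 and 6.54 in colon, and -4.94, -7.23 and -6.34 in CT26, at least 3243-fold lower in CT26 than in colon (limma adjusted p = 2.65e-06). Over the 11 tissue arrays its Pearson correlation with *Krt19* was 0.971, while both probes matched at 19 of 39 overlapping bases at their best placement. The probe of *Krt84* had a correlation of 0.918 with *Krt19*. The second probe of *Krt10* had a correlation of 0.913 with *Krt19* and of -0.108 with the first *Krt10* probe. *Krt81* read 2.22, 1.11 and 2.002 in small intestine, 1.58 and 0.79 in adjacent tissue, 2.62, 2.49 and 2.30 in adenomas, 1.29, 1.57 and 1.04 in colon, and -4.63, -3.70 and -4.11 in CT26, and *Krt85* read 5.98, 5.30 and 5.93 in small intestine, 4.92 and 4.17 in adjacent tissue, 5.26, 5.40 and 5.10 in adenomas, 5.17, 5.12 and 5.30 in colon, and 1.37, 3.06 and 2.80 in CT26. Their differences between CT26 and colon were -5.44 (SE 0.34, limma adjusted p = 1.39e-05) and -2.78 (SE 0.46, limma adjusted p = 0.00176). For *Krt85* the other 2 probes, at chromosome 15, had differences of -3.81 and -0.23, and their correlations with the brightest probe over the tissue arrays were -0.066 and 0.541. These correlations describe arrays that share tissue composition, and whether the probes read other keratins was not tested.

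The call of a gene could rest on the probe. The second probe of *Krt13*, above background on the 3 adenoma arrays alone, was higher in adenomas than in small intestine, by at least 3.04-fold, while the brightest *Krt13* probe differed by 0.60 (SE 0.53, limma adjusted p = 0.363). For *Krt6b* the second probe was at least 1.32-fold higher in adenomas, and the brightest probe differed by 0.12 on the log2 scale. A *Krt85* probe, above background on 2 small intestine arrays, rose by 2.43, where the brightest one differed by -0.49. Counting a keratin when any of its probes was called gave 12 keratins in place of 9 for this comparison.

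The genes that keratins work with were compared from lists. Of 19 genes of desmosomes and plakins, 14 were tested between CT26 and colon, and 10 were lower and none was higher, against 16.2% and 21% of all genes. Most of these 10 were above background on no CT26 array, so that they were tested only through colon and could hardly be called higher. *Perp*, *Dsp*, *Dsc2* and *Dsg2*, the last 3 encoding desmoplakin, a desmocollin and a desmoglein, were at least 2316, 943, 229 and 324-fold lower. *Pkp1* and *Pkp2* encode plakophilins that link desmosomal cadherins to desmoplakin. *Pkp1* was at least 202-fold lower, and *Pkp2* differed by -5.86 on the log2 scale. The 4 tested genes not called were *Pkp3*, *Pkp4*, *Plec* and *Dst*. All 12 general epithelial genes were lower, with summed scaled signals of 0.690 to 0.944 in CT26 against 1055 to 2056 in colon.

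Of 13 other intermediate filament genes, 12 were tested, of which 4 were higher and 5 lower in CT26 than in colon, against 21% and 16.2% of all genes. *Vim*, the filament gene of mesenchymal cells, read 2.42, 3.55 and 2.21 in colon, and 6.47, 8.08 and 7.69 in CT26, a log2 difference of 4.69 (SE 0.53, limma adjusted p = 0.000277). *Nefm*, a neurofilament gene, differed by 5.96 (SE 0.53, limma adjusted p = 8.38e-05), with 2 of 3 colon arrays above background, and *Nes* and *Lmna* were the other 2 that rose. *Des* and *Synm*, of muscle, were at least 547 and 368-fold lower. The fall of muscle genes lay beside smooth muscle sums of 10.9 to 32.2 in CT26 and 518 to 715 in colon. Between adenomas and small intestine, *Pkp1* rose by 2.10 and *Evpl*, encoding envoplakin, was called lower at -1.39 among 14 desmosome and plakin genes tested, and the other 12 were not called. This is 1 of 14 in each direction, against 11.3% and 11.1% of all genes. Among 11 other filament genes tested, *Nes* rose by 1.92, *Synm* was called lower at -1.91, and 9 were not called.

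The remaining keratins tested were called in no comparison with all arrays. *Krt12*, known from the cornea, had means of -1.22 in small intestine, -2.38 in adjacent tissue, -3.01 in adenomas and -4.45 in colon, and was above background on no CT26 array. *Krt80*, a type II keratin found in many epithelia, had means of -1.39, -1.62, -1.86 and -1.69 in these tissues and of -0.71 in CT26. *Krt2* and *Krt9*, of skin, ranged over the 5 group means from -2.30 to -1.24 and from -4.02 to -2.91, and *Krt73* of the inner root sheath from -0.52 to 0.11.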

How the data were processed

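RNA of 14 samples was hybridised to one-colour Agilent arrays. The authors deposited a scanner file per array made with Feature Extraction 10.7.3.1, in which the processed signal is an intensity on a linear scale after background subtraction, and a table of normalized log2 values made by the authors, which was used as an alternative. That table also holds fold changes and p-values of pairs of groups, which were not used, and 28 further columns of per-sample values were left out. Control spots and outlier spots were dropped, spots of a probe were averaged, and log2 of the intensity minus the 75th percentile of the array was taken. Each pair of groups was fitted on its own arrays with limma 3.58.1 (R 4.3.3) over all probes that were well above background throughout 1 or both groups, with Benjamini-Hochberg adjustment over all probes tested. As in the study's methods, calls combined a fold and an adjusted p. Calls needed a log2 difference of at least 1.2, which is 2.3-fold, and an adjusted p of at most 0.01. The scripts' recovery of known changes was tested on simulated data with independent normal noise. Those data had no background floor and no outlying array, so that the check does not cover these features.

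An "at least" fold divides the brighter group's mean by that of a floor. On each array of the dim group the floor was the lowest signal of any probe well above background, or the dim probe's own signal where that was higher. Other differences of means are fitted, also where part or all of a group's arrays were below background, and these then rest on signal at background. A summed scaled signal adds, over the genes of a list, each signal divided by the array's 75th percentile. Values on every array were given for the 20 keratins called in at least 1 comparison, group means for those tested and not called, and counts and ranges for the rest. For lists, the genes named were at most 4 called genes with the largest differences and the first 3 listed. Members and lists were chosen with earlier results of these data known. The number of arrays limits the precision, and slide and replicate number were tried as blocks.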

Additional observations from a re-analysis of the deposited data

How the results depend on the processing

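Of 467 values of 32 single keratin differences under other settings, 379 kept direction and side of the threshold, 88 kept direction but no longer passed, and 0 reversed. The settings were the authors' table, normexp background correction, quantile normalization, no filter or a filter in both groups, and 1 fit of all 5 groups. Others were the slide or the replicate number entered as a block, an adjusted p of at most 0.05, and leaving out each array. The relaxed adjusted p reuses the main fit, so that all 32 differences keep their call under it by construction. Each count of alternative settings includes it. For adenomas against small intestine, 9 keratins became 6 to 12 and, without 1 array, 6 to 9. Between adenomas and adjacent tissue, 4 became 1 without the filter, 0 with all 5 groups, 1 with slide as a block, 7 at an adjusted p of at most 0.05 and 0 to 3 without 1 array. For adjacent tissue against small intestine, 0 became 1 with all 5 groups, 3 at an adjusted p of at most 0.05 and 0 to 0 without 1 array. For colon against small intestine, 0 became 1 with all 5 groups, 1 at an adjusted p of at most 0.05 and 0 to 3 without 1 array. For CT26 against colon, 17 became 7 when both groups had to be above background, since fewer genes were then tested, and 15 to 19 without 1 array. For adenomas against colon, 2 became 1 without the filter, 5 with all 5 groups, 0 with slide as a block, 5 at an adjusted p of at most 0.05 and 0 to 5 without 1 array. For the other changes, the cause was not tested. With the replicate number as a block, 0 keratins were called between adenomas and adjacent tissue, 0 between adenomas and colon, 9 between adenomas and small intestine and 16 between CT26 and colon. Same-numbered arrays deviated together with correlations between -0.322 and 0.291. The titles number the adjacent samples differently, as 2 and 3. By these numbers, a block chosen after seeing the data gave 0 calls between adenomas and adjacent tissue and 0 between adjacent tissue and small intestine, with correlations between -0.141 and 0.207. In neither numbering did all pairs of a comparison with 3 pairs exceed 0.1, and with 2 pairs the check cannot settle it, so that no pairing was used.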
